A study of Mus musculus with 12 samples.

Results

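MHC class II molecules present peptides from the endosomal pathway to CD4 T cells, and thymic epithelial cells (TECs) use them to select the CD4 lineage. The genes described here are 10 of the 27179 genes in the deposited count tables: the class II chain genes H2-Aa, H2-Ab1 and H2-Eb1, the invariant chain gene Cd74, the peptide exchange genes H2-DMa, H2-DMb1 and H2-DMb2, their inhibitor genes H2-Oa and H2-Ob, and the class II transactivator gene Ciita. They were taken by symbol, and all 10 were found by Entrez ID and passed the filter on low counts. RNA was sequenced from TECs of C57BL/6 mice sorted by flow cytometry, in 12 libraries of 4 groups with 3 libraries each. The groups were HOIL-deficient mTEChi (medullary TECs with high MHC class II), control mTEChi, HOIL-deficient cTECs (cortical TECs) and control cTECs. HOIL-deficient mice carried a Foxn1-Cre transgene and Hoil lox/lox, and controls carried Hoil lox/lox without Cre, so every mouse had the floxed alleles. Foxn1 is the transcription factor that defines TECs, and its promoter drives Cre in this lineage. The labels give replicate 3 of both HOIL-deficient groups as female and the other 10 libraries as male, and give neither the age nor the number of mice per library.

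Both sort gates used MHC class II protein: mTEChi were taken as class II high, Ly51-negative and UEA1-positive, and cTECs as class II positive, Ly51-positive and UEA1-negative. Surface class II was therefore set in part by the sort, and the transcripts are described within those gates. CD45-, TER-119- and CD31-positive cells had been gated out and EpCAM-positive cells kept.

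Ciita is a coactivator that does not bind DNA itself. It is recruited to the S, X and Y boxes of class II promoters by the RFX complex, CREB and NF-Y, and its own transcription can be induced by interferon gamma through JAK kinases and IRF1. Newly made alpha and beta chains assemble with the invariant chain, which is trimmed by proteases to the fragment CLIP. H2-M, made of H2-DMa with either beta chain, releases CLIP and exchanges peptides, and H2-O, made of H2-Oa and H2-Ob, inhibits H2-M and is best known from B cells and mTECs. C57BL/6 mice show I-A (H2-Aa with H2-Ab1) and no I-E at the surface, because H2-Ea is not functional in this strain, although H2-Eb1 is transcribed.

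Libraries held 7941217 to 14274333 counts, and a member had between 33 and 509268 counts in a library. Together the 10 genes took 6.56 to 7.73% of counts in HOIL-deficient mTEChi and 3.97 to 6.37% in control mTEChi. They took 2.55 to 2.78% in HOIL-deficient cTECs and 2.95 to 3.19% in control cTECs. Replicate 1 of control mTEChi stood apart, with the 3.97% and with 8.93% mitochondrial counts. The other 2 control mTEChi libraries had 3.19 and 4.35% mitochondrial counts, and HOIL-deficient mTEChi had 1.71 to 1.91%. Rbck1, which encodes HOIL-1, had 11.3, 11.8 and 23.4 CPM (counts scaled to a common library size) in HOIL-deficient mTEChi, against 130.4, 129 and 113 in control mTEChi. It had 20.8, 31.3 and 20.6 CPM in HOIL-deficient cTECs, against 186, 236 and 214 in control cTECs. The target gene was thus lower in every library labelled HOIL-deficient.

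Markers followed the labelled cell types. The summed level of 5 mTEC markers was 1851 to 2299 CPM in HOIL-deficient mTEChi and 1395 to 1746 in control mTEChi, against 23.6 to 48.9 in HOIL-deficient cTECs and 42.0 to 151 in control cTECs. The sum of 5 cTEC markers was 1555 to 2023 and 1632 to 1946 CPM in HOIL-deficient and control mTEChi, and 12985 to 13700 and 24683 to 32482 CPM in HOIL-deficient and control cTECs. In bulk samples such as these, fewer cells of a type and less RNA per cell cannot be told apart. B cells, dendritic cells and macrophages also express class II. Their lists summed to 104 to 124 CPM (8 B cell markers) and 906 to 1136 CPM (12 myeloid markers, mostly Lyz2) in HOIL-deficient mTEChi, against 130 to 143 and 939 to 1252 CPM in control mTEChi. In cTECs the B cell list summed to 37.1 to 59.4 CPM in HOIL-deficient and 88.9 to 294 CPM in control libraries, with Pax5 at 0 in both groups. The myeloid list summed there to 38.3 to 103 and 25.1 to 33.0 CPM in the same 2 groups. The part of such cells in the class II levels was not tested.

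Class II promoters are where Ciita acts, so those listed for members are shown first. RefSeq promoter windows on GRCm38.p6, from 250 bases before to 50 after a start of transcription, were listed for 7 members. Those of H2-DMa and H2-DMb2 lie within the gene spans given further on, at starts downstream of the first one. In 6 of them the letters AAC, taken here as a mark of the X box, stood 24 to 27 bases before GATTGG, the core of the Y box. The stretches are printed 5′ to 3′ on the coding strand, with AAC or the longer AACNNATGATGC and GATTGG in capitals. These letters were chosen after the windows had been read.
H2-Aa: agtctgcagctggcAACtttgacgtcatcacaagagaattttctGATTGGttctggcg
H2-Eb1: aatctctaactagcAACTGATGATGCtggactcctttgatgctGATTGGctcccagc
H2-DMb1: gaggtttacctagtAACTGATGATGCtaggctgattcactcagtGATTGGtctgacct
H2-DMb2: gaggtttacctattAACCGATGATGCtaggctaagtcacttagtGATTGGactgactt
H2-Oa: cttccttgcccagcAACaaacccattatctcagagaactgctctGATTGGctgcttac
H2-Ob: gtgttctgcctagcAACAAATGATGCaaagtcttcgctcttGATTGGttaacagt
They lie at chr17:34287859-34287916 (minus strand) for H2-Aa, chr17:34305764-34305820 for H2-Eb1, chr17:34153085-34153142 for H2-DMb1, chr17:34145114-34145171 for H2-DMb2, chr17:34092291-34092348 for H2-Oa and chr17:34238806-34238860 for H2-Ob, the last 5 on the plus strand.

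The Y-box core was common among promoters and the long X-box word was rare. On either strand, GATTGG was in 16.1% of the 32851 promoter windows and in 7 of the 8 windows of members. AACNNATGATGC was in 13 windows of all (0.0396%), of which 4 belonged to H2-Eb1, H2-DMb1, H2-DMb2 and H2-Ob. This word was made as the consensus of those 4 stretches. Their matches were therefore fixed in advance, and the share over all windows is no test of the members. AAC followed within 12 to 32 bases by GATTGG was in 3.81% of windows and in the 6 shown. H2-Aa and H2-Oa carried only the short AAC at that place. The 2 windows of H2-DMa held no such pair. H2-Ab1, Cd74 and Ciita had no window in the table. A match is a description of letters and not of binding.

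H2-Aa (Entrez 14960) and H2-Ab1 (14961) encode the alpha and beta chains of I-A and lie at chr17:34282744-34287823 and chr17:34263227-34269418 on GRCm38.p6. H2-Aa had 12189.9, 9285 and 10166 CPM in replicates 1 to 3 of HOIL-deficient mTEChi, against 7310.1, 7885 and 7741 CPM in control mTEChi. It had 3678, 3449 and 3099.8 CPM in HOIL-deficient cTECs, against 3669, 3571 and 3474 CPM in control cTECs. The HOIL-deficient mTEChi libraries were all above the control mTEChi libraries, and those of the cTEC groups overlapped. Such separation of the genotypes was common: 44.8% of all tested genes did not overlap in mTEChi and 28.0% in cTECs. H2-Ab1 had 20149, 15495 and 18270.0 CPM in HOIL-deficient mTEChi, against 11806, 18576 and 16895 CPM in control mTEChi. It had 7684, 6808 and 6603 CPM in HOIL-deficient cTECs, against 8065, 7702 and 7444 CPM in control cTECs. Both genotypes overlapped in each cell type, and replicate 1 of control mTEChi was the lowest of the 6 mTEChi libraries.

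H2-Eb1 (14969, chr17:34305867-34316674) encodes the I-E beta chain. It had 5767, 4609.8 and 4796 CPM in HOIL-deficient mTEChi, against 4609, 5358 and 5463 CPM in control mTEChi. It had 1788, 1873 and 1739 CPM in HOIL-deficient cTECs, against 1919.9, 1756 and 1787 CPM in control cTECs. The genotypes overlapped in both cell types, and every mTEChi library was above every cTEC library. Its partner H2-Ea, listed as a transcribed pseudogene, had 1.22, 2.08 and 2.47 CPM in HOIL-deficient mTEChi and 1.05, 3.02 and 4.11 CPM in control mTEChi. It was at 0 in 5 of the 6 cTEC libraries and at 0.377 CPM in replicate 2 of control cTECs.

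Cd74 (16149, chr18:60803849-60812652), the invariant chain that holds the peptide groove and sorts the complex to endosomes, was the most abundant member in each group. It had 38169, 34326 and 35917 CPM in HOIL-deficient mTEChi, against 19634, 29743 and 29506 CPM in control mTEChi. It had 11666, 12728 and 10662.5 CPM in HOIL-deficient cTECs, against 17175, 14788 and 14806 CPM in control cTECs. Cd74 was higher in each HOIL-deficient mTEChi library than in any control mTEChi library, and lower in each HOIL-deficient cTEC library than in any control cTEC library.

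The H2-M genes differed among themselves. H2-DMa (14998, chr17:34119693-34139101), the alpha chain, had 336, 283 and 302 CPM in HOIL-deficient mTEChi, against 283, 365 and 369.8 CPM in control mTEChi. It had 444, 419.5 and 392 CPM in HOIL-deficient cTECs, against 547, 486 and 481 CPM in control cTECs. H2-DMa was the one member whose 6 cTEC libraries were all above its 6 mTEChi libraries. Of the beta chains, H2-DMb1 (14999, chr17:34153191-34160229) had 581, 440.3 and 508 CPM in HOIL-deficient mTEChi, against 369.9, 465 and 414 CPM in control mTEChi. It had 291, 261 and 238 CPM in HOIL-deficient cTECs, against 237, 256.5 and 260.4 CPM in control cTECs. The genotypes overlapped for H2-DMb1 in both cell types. H2-DMb2 (15000, chr17:34143229-34151553) had 1412, 1171 and 1242 CPM in HOIL-deficient mTEChi, against 553, 934 and 855 CPM in control mTEChi. It had 454, 404 and 367 CPM in HOIL-deficient cTECs, against 467, 510.3 and 444 CPM in control cTECs. H2-DMb2 was higher in all HOIL-deficient mTEChi libraries, with the lowest mTEChi value in replicate 1 of control mTEChi, and the cTEC libraries overlapped. The beta chain genes share sequence: 19.1% of the 75-base windows of H2-DMb1 transcripts and 16.2% of those of H2-DMb2 also occur in another gene, so how their shared reads were counted is uncertain. The annotated transcripts of H2-DMa overlap Brd2 on the opposite strand.

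The H2-O genes differed most between the cell types. H2-Oa (15001, chr17:34092379-34095234) had 606, 505 and 538 CPM in HOIL-deficient mTEChi, against 518, 557 and 604 CPM in control mTEChi. It had 96.2, 106 and 80.6 CPM in HOIL-deficient cTECs, against 156, 134 and 125 CPM in control cTECs. The genotypes overlapped in mTEChi, while each HOIL-deficient cTEC library was below each control cTEC library. H2-Ob (15002, chr17:34238905-34245908) had 124, 100.5 and 101 CPM in HOIL-deficient mTEChi, against 92.7, 92.6 and 88.0 CPM in control mTEChi. It had 6.71, 6.80 and 4.13 CPM in HOIL-deficient cTECs, against 6.82, 4.40 and 3.31 CPM in control cTECs. H2-Ob was low in every cTEC library. It separated the genotypes in mTEChi alone, where 44.8% of all tested genes did so, and edgeR did not call it there (log2 0.25, adjusted p = 0.471). H2-Oa shares 17.3% of its 75-base windows with BC051537, an antisense gene on the other strand, and reads of the 2 genes cannot be told apart without strand.

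Ciita (12265, chr16:10480014-10531064) had 221, 139.7 and 185 CPM in HOIL-deficient mTEChi, against 141, 184 and 142 CPM in control mTEChi. It had 132, 72.5 and 82.3 CPM in HOIL-deficient cTECs, against 128, 233 and 204 CPM in control cTECs. Control cTECs had the highest mean, 188 ± 54.2 CPM (SD, n = 3), ahead of HOIL-deficient mTEChi at 182 ± 40.5 and control mTEChi at 156 ± 24.8, and these 3 groups overlapped. HOIL-deficient cTECs were the lowest at 95.5 ± 31.7 CPM, with replicate 1 slightly above replicate 1 of control cTECs. Ciita therefore did not rank the groups as the class II chains did.

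**Figure D1:**
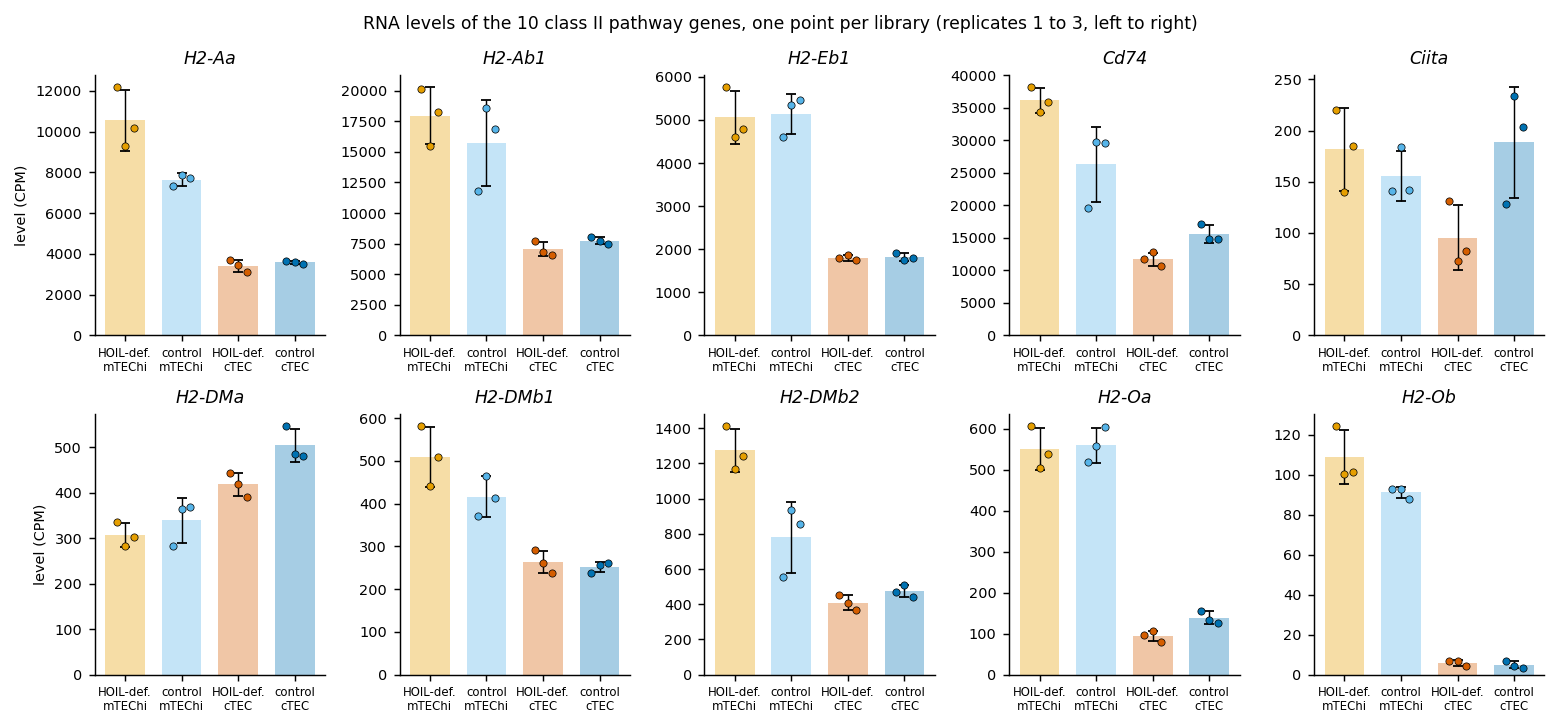
Levels of the 10 genes in each library in CPM (counts scaled to a common library size by TMM), 1 panel per gene with its own axis from 0. Bars are the means of 3 libraries, error bars the SD, and points are replicates 1 to 3 from left to right. H2-Ob is close to 0 in both cTEC groups, and Ciita is lowest in HOIL-deficient cTECs.

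Levels of different genes were compared per kilobase of the deposited gene length. In each group the order began with Cd74, H2-Ab1, H2-Aa and H2-Eb1, at 25539 ± 1365, 15064 ± 1962, 9866 ± 1393 and 3030.4 ± 372 CPM per kilobase in HOIL-deficient mTEChi (SD, n = 3). In control mTEChi they were at 18582 ± 4077, 13209 ± 2955, 7152 ± 279.7 and 3082 ± 279, where Cd74 and H2-Ab1 overlapped. In HOIL-deficient cTECs they were at 8258 ± 729.9, 5894 ± 481, 3189 ± 273 and 1078 ± 40.8, against 11017 ± 970.2, 6485 ± 261, 3341 ± 91.1 and 1091 ± 52.1 CPM per kilobase in control cTECs. The fifth place differed by cell type. H2-DMb2 held it in mTEChi, at 1622 ± 158 CPM per kilobase in HOIL-deficient and 993 ± 256 in control libraries. H2-Oa followed there, at 524 ± 49.0 and 533 ± 40.8, ahead of H2-DMa at 393 ± 34.5 and 434 ± 62.2 and H2-DMb1 at 397 ± 54.9 and 324 ± 37.0 in HOIL-deficient and control mTEChi. In cTECs H2-DMb2 and H2-DMa came next and overlapped, at 520.0 ± 55.6 and 536 ± 33.4 in HOIL-deficient and 602 ± 43.1 and 646 ± 46.8 in control libraries. The genes at the bottom differed by cell type: H2-Ob and Ciita stood at 40.7 ± 5.04 and 31.9 ± 7.12 CPM per kilobase in HOIL-deficient mTEChi and 34.1 ± 1.00 and 27.3 ± 4.35 in control mTEChi. In HOIL-deficient cTECs they stood at 2.20 ± 0.566 and 16.8 ± 5.57, and in control cTECs at 1.81 ± 0.673 and 33.1 ± 9.52. Ciita was thus above H2-Ob in cTECs of both genotypes.

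The first comparison asked how mTEChi differed from cTECs in control mice. Class II chain, invariant chain and H2-O transcripts were higher in mTEChi, H2-DMa was lower, and Ciita was not called. The mTEChi gate took class II high cells and the cTEC gate class II positive cells. How much of the chain differences the gates set was not tested, here or in HOIL-deficient mice. Of the 10 members, 8 were called higher and 1 lower at an adjusted p under 0.05 by the quasi-likelihood test of edgeR, where 64.2% of the 19398 tested genes were called, 37.8% higher and 26.4% lower. The members' median log2 fold change was 0.89, against 0.24 over all tested genes, a value that RLE factors moved by 0.19. The libraries of the 2 groups did not overlap for 9 members, and for 70.7% of all tested genes. The largest difference was H2-Ob, 18.7-fold higher (log2 4.22, SE 0.273, adjusted p = 2.16e-08), and then H2-Oa, 4.05-fold higher (log2 2.02, SE 0.152, adjusted p = 8.81e-08). Log2 fold changes of the chains were 1.10 (SE 0.128, adjusted p = 6.02e-06) for H2-Aa, 1.03 (adjusted p = 9.25e-05) for H2-Ab1 and 1.50 (adjusted p = 3.27e-07) for H2-Eb1. Cd74 was higher by 0.75 (SE 0.156, adjusted p = 0.000795), H2-DMb1 by 0.73 and H2-DMb2 by 0.72. H2-DMa was 1.49-fold lower (log2 -0.57, SE 0.140, adjusted p = 0.0027). Ciita stood at -0.28 on the same scale (SE 0.259, adjusted p = 0.365). BC051537, the gene that overlaps H2-Oa, was higher to the same degree (log2 2.04).

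In HOIL-deficient mice the same comparison of mTEChi with cTECs called 9 members higher and 1 lower, where 48.4% of all tested genes were called, 32.0% higher and 16.4% lower. The members' median was 1.56, against 0.19 over all tested genes. None of the 10 overlapped between the groups, as 56.5% of all tested genes did not. H2-Ob was 18.6-fold higher (log2 4.22, SE 0.269, adjusted p = 2.97e-08) and H2-Oa 5.83-fold higher (log2 2.54, SE 0.155, adjusted p = 1.95e-08). Log2 fold changes of 1.63 were found for both H2-Aa (SE 0.130, adjusted p = 2.12e-07) and Cd74 (SE 0.159, adjusted p = 1.44e-06). H2-DMb2 was higher by 1.64 (SE 0.181, adjusted p = 4.73e-06), H2-Eb1 by 1.49, H2-Ab1 by 1.35 and H2-DMb1 by 0.95. H2-DMa was lower, at -0.45 (SE 0.140, adjusted p = 0.0166), a call that was lost without replicate 1 of HOIL-deficient cTECs (adjusted p = 0.0638) or replicate 2 of HOIL-deficient mTEChi (0.063). Ciita was higher in mTEChi here, at 0.93 (SE 0.262, adjusted p = 0.00901), and males alone did not keep the call (0.0873). Whether the cell type difference depended on genotype is the same contrast as the difference between HOIL effects given further on.

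**Figure D2:**
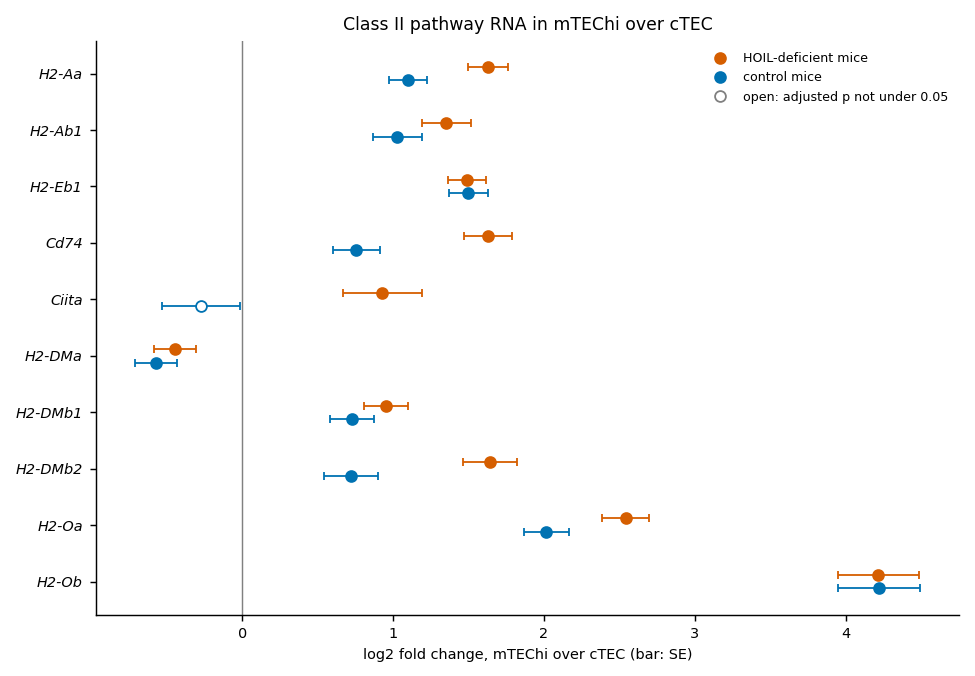
Log2 fold change of mTEChi over cTECs for the 10 genes in HOIL-deficient and control mice, with error bars of 1 SE and filled points at an adjusted p under 0.05. H2-Ob lies near 4.22 in both genotypes, H2-DMa is below 0 in both, and Ciita is filled in HOIL-deficient mice alone.

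In HOIL-deficient mTEChi, transcripts of the I-A alpha chain and of an H2-M beta chain were higher than in controls. H2-Aa was 1.38-fold higher in HOIL-deficient mTEChi, 10547 ± 1489 CPM against 7645 ± 299 CPM in control mTEChi (log2 0.46, SE 0.127, adjusted p = 0.0209). H2-DMb2 was 1.63-fold higher, 1275 ± 124 against 780.4 ± 201 CPM (log2 0.71, SE 0.177, adjusted p = 0.0137). These were the 2 members called of 10, none being called lower, where 19.9% of all tested genes were called, 11.3% higher and 8.59% lower. Of those calls over all genes 56.8% were higher, and 46.3% with upper-quartile factors. The share of members called was thus close to the background. The members' median was 0.24, against -0.03 over all tested genes, and 4 members did not overlap (H2-Aa, H2-DMb2, H2-Ob and Cd74), against 44.8% of all tested genes.

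The remaining members of this comparison did not pass. Cd74 averaged 36138 ± 1931 CPM in HOIL-deficient mTEChi and 26294 ± 5769 CPM in control mTEChi (log2 0.46, SE 0.155, adjusted p = 0.0516). Cd74 was called higher under 4 of 20 alternatives (adjusted p down to 0.0222), and without replicate 1 of control mTEChi its value was 0.26 (adjusted p = 0.152). Log2 fold changes of the others were 0.29 for H2-DMb1, 0.25 for H2-Ob, 0.22 for Ciita (SE 0.259, adjusted p = 0.588), 0.19 for H2-Ab1, -0.02 for H2-Eb1, -0.03 for H2-Oa and -0.14 for H2-DMa. The 2 chains of I-A therefore gave a call for H2-Aa and none for H2-Ab1, and the difference between the chains, tested as their ratio within a library, was -0.25 on the log2 scale (exact permutation p = 0.4).

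The calls in mTEChi rested on few libraries. H2-Aa lost its call without replicate 1 or 3 of either mTEChi group, with adjusted p up to 0.0913, and with RLE (0.0602) or upper-quartile factors (0.0664). H2-DMb2 lost it without replicate 1 of HOIL-deficient mTEChi alone (adjusted p = 0.0544), and without replicate 1 of control mTEChi its log2 fold change was 0.49 (adjusted p = 0.0365). Mitochondrial counts, given above, and Malat1, a nuclear RNA, moved with genotype in these cells: Malat1 took 0.713 to 0.983% of counts in HOIL-deficient mTEChi and 3.29 to 5.13% in control mTEChi. Endothelial markers summed to 99.7 to 312 CPM in HOIL-deficient mTEChi, against 45.2 to 68.4 CPM in control mTEChi. Fibroblast and pericyte markers summed to 294 to 487 against 225 to 242 CPM in the same groups, mostly through Acta2. Acta2 averaged 221 CPM in HOIL-deficient and 53.1 CPM in control mTEChi. Rgs5 (99.8 against 117 CPM) and Pdgfrb (21.4 against 24.3 CPM) had lower means with HOIL deficiency, and Col1a1, Col1a2 and Pdgfra higher ones. Of these 6 markers 1 was called higher. The part of these counts and markers in the class II values was not tested.

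In HOIL-deficient cTECs, transcripts of the transactivator and of an H2-O chain were lower than in controls. Ciita was 1.97-fold lower in HOIL-deficient cTECs, 95.5 ± 31.7 CPM against 188 ± 54.2 CPM in control cTECs (log2 -0.98, SE 0.262, adjusted p = 0.0265). H2-Oa was 1.47-fold lower, 94.4 ± 13.0 against 138 ± 15.6 CPM (log2 -0.55, SE 0.147, adjusted p = 0.0265). No member was called higher and 2 of 10 were called lower, where 12.1% of all tested genes were called, 6.06% higher and 6.02% lower. The members' median was -0.18, against -0.02 over all tested genes, and 3 members did not overlap (H2-DMa, H2-Oa and Cd74), against 28.0% of all tested genes. BC051537 on the other strand of H2-Oa moved with it, at 33.3 ± 2.56 CPM in HOIL-deficient cTECs and 53.1 ± 3.27 CPM in control cTECs (log2 -0.68, SE 0.139, adjusted p = 0.00715). Dexi, which overlaps Ciita on the opposite strand, had 53.5 ± 3.92 and 55.8 ± 2.59 CPM in the same groups (log2 -0.06, adjusted p = 0.861).

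The class II chains themselves were not called in cTECs. H2-Aa averaged 3409 ± 291 CPM in HOIL-deficient cTECs and 3571 ± 97.4 CPM in control cTECs (log2 -0.07, SE 0.127, adjusted p = 0.819). H2-Ab1 averaged 7032 ± 574 against 7737 ± 312 CPM (log2 -0.14, SE 0.161), and H2-Eb1 1799.8 ± 68.1 against 1821 ± 86.9 CPM (log2 -0.02, SE 0.126). Nor did Cd74 pass the test, at 11685 ± 1033 against 15589.5 ± 1373 CPM (log2 -0.42, SE 0.155, adjusted p = 0.0996), or H2-DMa, at -0.27 (adjusted p = 0.237). H2-DMb1, H2-DMb2 and H2-Ob had log2 fold changes of 0.07, -0.21 and 0.26. Ciita was thus called lower in cells whose I-A and I-E chain transcripts were not called.

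Both cTEC calls were lost when only the cTEC groups were fitted (adjusted p = 0.066 for Ciita and 0.0884 for H2-Oa), and in males alone (0.109 and 0.13). H2-Oa also lost it with RLE (0.0518) and upper-quartile factors (0.0637). Ciita also lost its call without replicate 2 or 3 of either cTEC group, with adjusted p up to 0.099, and H2-Oa without any of 6 single libraries, with adjusted p up to 0.0967. Cd74 gained a call without replicate 1 of control mTEChi (log2 -0.39, adjusted p = 0.023). Markers of other cells moved with genotype in cTECs. Thymocyte markers summed to 251 to 492 CPM in HOIL-deficient cTECs and 688 to 2395 CPM in control cTECs, and Ptprc, the pan-hematopoietic marker, had 32.3 to 69.1 against 98.6 to 315 CPM. Fibroblast and pericyte markers summed to 1010 to 1646 against 29.0 to 384 CPM, and endothelial markers to 61.7 to 167 against 20.3 to 37.9 CPM. Of the 5 cTEC markers, 4 were called lower. The part of these cells in the class II values was not tested.

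The difference between the HOIL effects in mTEChi and in cTECs was then tested as an interaction. Cd74 and H2-DMb2 differed between the cell types. The effect on Cd74 was 0.46 in mTEChi and -0.42 in cTECs, a difference of 0.87 on the log2 scale (SE 0.220, adjusted p = 0.0243). The effect on H2-DMb2 was 0.71 in mTEChi and -0.21 in cTECs, a difference of 0.92 (SE 0.250, adjusted p = 0.0335). These 2 members were called higher and none lower, where 9.84% of all tested genes were called, 5.97% higher and 3.86% lower. The members' median difference was 0.43, against 0.09 over all tested genes. Ciita had the largest difference, 1.20 (SE 0.368), with an adjusted p of 0.0534 that was 0.0179 to 0.152 over the alternatives. H2-Aa and H2-Oa each differed by 0.53 without passing (adjusted p = 0.0753 and 0.122). H2-Ab1 differed by 0.33, H2-DMb1 by 0.23 and H2-DMa by 0.13, and H2-Eb1 and H2-Ob by -0.01 and -0.00. The control and HOIL-deficient libraries that enter this contrast are those of the comparisons above, so it adds no independent data.

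Both called differences depended on the scaling. With RLE factors the adjusted p was 0.0631 for Cd74 and 0.0733 for H2-DMb2, and that scaling moved the median of all genes in this contrast by -0.14. Of all calls in this contrast 60.7% were higher, and 45.0% with RLE factors. In males alone it was 0.0871 and 0.103. Without replicate 1 of control mTEChi the differences were 0.65 (adjusted p = 0.0253) for Cd74 and 0.67 (adjusted p = 0.0434) for H2-DMb2. Leaving out replicate 1 or 3 of HOIL-deficient mTEChi ended both calls. In all, the H2-DMb2 call was lost under 11 of 21 alternatives and the Cd74 call under 7.

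**Figure D3:**
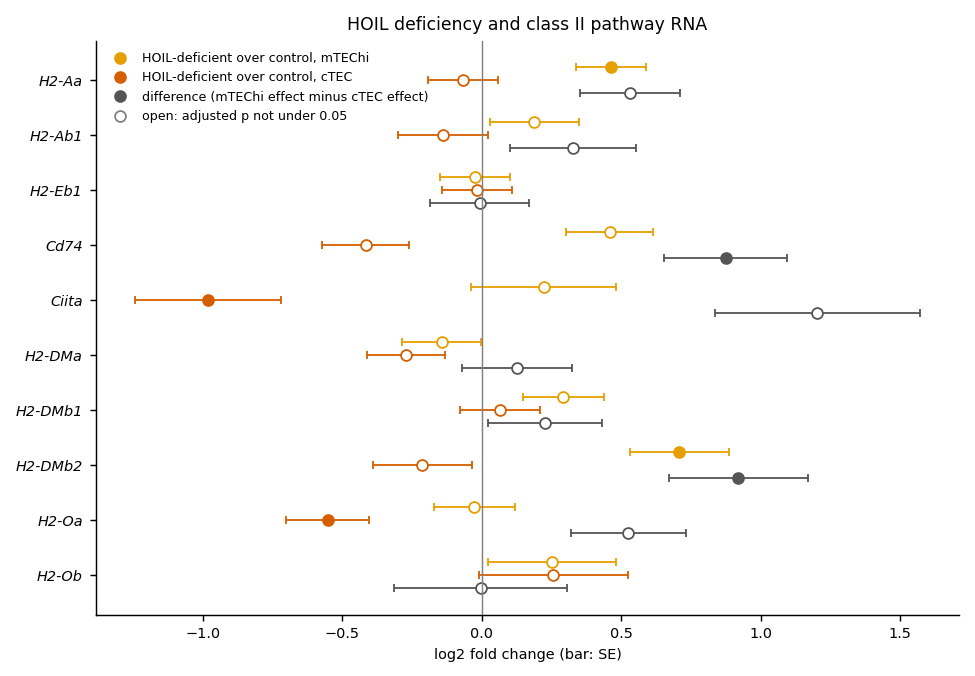
Log2 fold change of HOIL-deficient over control libraries in mTEChi and in cTECs, and the mTEChi effect minus the cTEC effect, for the 10 genes, with error bars of 1 SE and filled points at an adjusted p under 0.05. H2-Aa and H2-DMb2 are filled above 0 in mTEChi, Ciita and H2-Oa below 0 in cTECs, and Cd74 and H2-DMb2 in the difference.

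Ratios within a library do not depend on the scaling between libraries, and 8 ratios of per-kilobase levels were compared in 4 comparisons. With 3 libraries against 3, the 2-sided exact permutation test cannot give a p below 0.1, which becomes 0.139 after Benjamini-Hochberg adjustment over the 32 tests, so none could pass. The ratio of H2-DMa to the summed H2-DMb genes was 0.191, 0.198 and 0.196 in HOIL-deficient mTEChi, against 0.366, 0.301 and 0.336 in control mTEChi (log2 difference -0.77, exact permutation p = 0.1). It was 0.707, 0.749 and 0.769 in HOIL-deficient cTECs, against 0.899, 0.733 and 0.802 in control cTECs (log2 difference -0.13, exact permutation p = 0.3). H2-DMa thus made up far less of H2-M transcripts in mTEChi, least in the HOIL-deficient ones. H2-DMb2 over H2-DMb1 was 3.97, 4.34 and 3.99 in HOIL-deficient mTEChi, against 2.44, 3.28 and 3.38 in control mTEChi. It was 2.55, 2.53 and 2.52 in HOIL-deficient cTECs, against 3.21, 3.25 and 2.78 in control cTECs. The genotypes did not overlap in either cell type, and the ratio was higher in HOIL-deficient mTEChi and lower in HOIL-deficient cTECs (exact permutation p = 0.1 for each).

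The ratio of H2-O to H2-M genes was 0.234 ± 0.00196 in HOIL-deficient mTEChi and 0.331 ± 0.0555 in control mTEChi, and 0.0731 ± 0.00845 in HOIL-deficient cTECs and 0.0924 ± 0.00833 in control cTECs (SD, n = 3). It was higher in mTEChi than in cTECs in both genotypes and lower in HOIL-deficient than in control libraries of both cell types, without overlap. The H2-O sum was mostly H2-Oa: H2-Ob over H2-Oa was 0.0775 and 0.0643 in HOIL-deficient and control mTEChi, and 0.0242 and 0.0135 in HOIL-deficient and control cTECs. In mTEChi the lower ratio went with HOIL effects (log2) of -0.03 for H2-Oa, 0.25 for H2-Ob, -0.14 for H2-DMa, 0.29 for H2-DMb1 and 0.71 for H2-DMb2. In cTECs H2-Oa itself was lower (log2 -0.55). Cd74 relative to the summed I-A chains was 1.03 ± 0.0833 in HOIL-deficient mTEChi and 0.906 ± 0.0730 in control mTEChi, which overlapped (exact permutation p = 0.2). It was 0.912 ± 0.0878 in HOIL-deficient cTECs and 1.12 ± 0.0639 in control cTECs, which did not (exact permutation p = 0.1). H2-Ab1 over H2-Aa was 1.53 ± 0.0708 in HOIL-deficient mTEChi, 1.84 ± 0.347 in control mTEChi, 1.85 ± 0.0726 in HOIL-deficient cTECs and 1.94 ± 0.0258 in control cTECs. Replicate 1 of control mTEChi had 1.45 and its other replicates 2.11 and 1.96. H2-M relative to the I-A chains was 0.0970 ± 0.00365 and 0.0856 ± 0.00407 in HOIL-deficient and control mTEChi, and 0.139 ± 0.00178 and 0.147 ± 0.00281 in HOIL-deficient and control cTECs. Relative to I-A, cTECs thus held more H2-M transcripts in both genotypes.

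**Figure D4:**
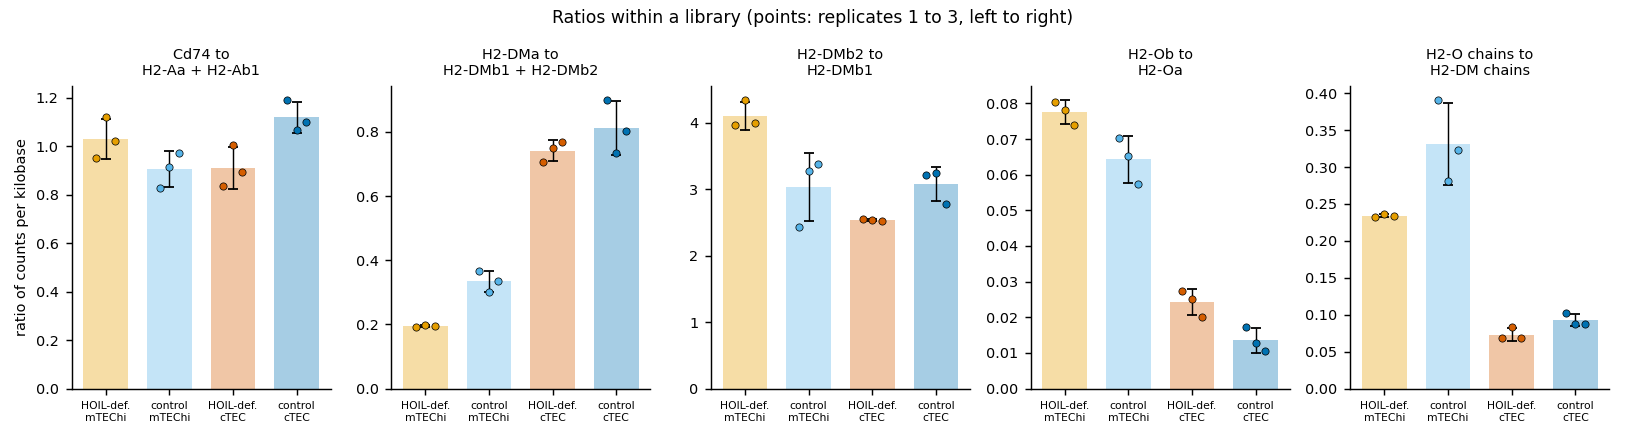
Within-library ratios of per-kilobase levels for 5 pairs of chains in the 4 groups, with bars for the mean of 3 libraries, error bars for the SD and points for the libraries. The ratio of H2-DMa to the H2-DMb genes is 0.195 ± 0.00323 in HOIL-deficient mTEChi and 0.334 ± 0.0324 in control mTEChi, below both cTEC groups.

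Genes that act with the class II system were described from 4 lists. Their counts stand beside the shares called over all tested genes: 19.9% for HOIL deficiency in mTEChi, 12.1% in cTECs, 9.84% for the difference, and 48.4% and 64.2% for the cell types in HOIL-deficient and control mice. The list of class II transcription held 12 genes of the RFX, NF-Y and CREB factors and of the coactivators that work with Ciita. In mTEChi 1 was called higher with HOIL deficiency, the NF-Y subunit gene Nfyc (log2 0.60, adjusted p = 0.041), and 1 lower, the acetyltransferase gene Ep300 (log2 -0.80, adjusted p = 0.0172). These 2 of 12 are no larger a share than over all genes. In cTECs none was called higher and 2 lower: Ep300 had 14.9 ± 3.09 CPM in HOIL-deficient and 29.6 ± 2.29 CPM in control cTECs (log2 -0.99, SE 0.212, adjusted p = 0.00895). Smarca4, the ATPase of the SWI/SNF remodelling complex that Ciita recruits, had 113 ± 13.0 and 224 ± 12.7 CPM there (log2 -0.99, SE 0.140, adjusted p = 0.000801). Smarca4 also differed between the cell types' HOIL effects, by 0.86 (adjusted p = 0.0168). Rfx5, the RFX subunit that binds the X box, was not called in either cell type, at -0.34 in mTEChi and -0.48 in cTECs. The list's medians were 0.04 in mTEChi and -0.16 in cTECs. Nfyc lost its call under 15 of 20 alternatives, Ep300 in mTEChi without replicate 2 or 3 of HOIL-deficient mTEChi or in males (adjusted p up to 0.064), and the Smarca4 difference without replicate 3 of control mTEChi or in males (up to 0.058). In the cell type comparison none was higher and 6 lower in control mTEChi (Rfxap, Nfyb, Nfyc, Creb1, Carm1 and Smarca4), and in HOIL-deficient mTEChi 1 was higher (Crebbp) and 4 lower (Rfxap, Nfyc, Creb1 and Kat2b).

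The list of Ciita induction held 8 genes of interferon gamma signalling. In mTEChi 3 were called higher with HOIL deficiency and none lower: the receptor genes Ifngr1 (log2 1.03, adjusted p = 0.0262) and Ifngr2 (log2 0.85, adjusted p = 0.00615) and the kinase gene Jak1. In cTECs none was called higher and 2 lower, the kinase gene Jak2 (log2 -0.87, adjusted p = 0.015) and Irf1. Jak1 had 398 ± 43.0 CPM in HOIL-deficient mTEChi and 166 ± 12.4 CPM in control mTEChi (log2 1.26, SE 0.155, adjusted p = 0.000273), against 328 ± 30.7 and 390.2 ± 67.2 CPM in HOIL-deficient and control cTECs. Irf1, a transcription factor that acts on the Ciita gene, had 536 ± 41.4 CPM in HOIL-deficient cTECs and 891 ± 65.4 CPM in control cTECs (log2 -0.73, SE 0.131, adjusted p = 0.00336). The Jak1 call in mTEChi and the Irf1 call in cTECs were kept under every alternative. Differences between the HOIL effects were called for Ifngr1 (1.65), Jak1 (1.51), Jak2 (1.13) and Irf1 (0.68), with none lower. The list's medians were 0.11 in mTEChi, -0.51 in cTECs and 0.72 for the difference. The medians in cTECs and for the difference include Ifng, which was below 1 CPM in both cTEC groups. Ifngr1 in mTEChi lost its call under 5 of 20 alternatives and Jak2 in cTECs under 3, and of 21 alternatives the differences for Ifngr1, Jak2 and Irf1 were lost under 7, 9 and 13. In control mTEChi against control cTECs 3 were higher and 4 lower, among them Jak1 (log2 -1.23) and Irf1 (log2 -1.51), while Ciita was not called. In HOIL-deficient mice 3 were higher and 1 lower (Irf1, log2 -0.83). Ifng itself was at 0.813 to 3.24 CPM in HOIL-deficient mTEChi, 4.06 to 6.53 CPM in control mTEChi and at most 0.301 CPM in cTECs.

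The list of peptide supply and turnover held 14 genes. In mTEChi 4 were called higher with HOIL deficiency and none lower: the cathepsin genes Ctsb (log2 0.78, adjusted p = 0.0133) and Ctsl (log2 0.65, adjusted p = 0.0343), the thiol reductase gene Ifi30 (log2 0.52, adjusted p = 0.0188) and the lysosomal membrane gene Lamp2 (log2 0.84, adjusted p = 0.00275). In cTECs none was higher and 4 lower. These were Cd83 (log2 -1.99), which stabilises surface class II, Ifi30 (log2 -0.80), Ctsl (log2 -0.73) and Sppl2a (log2 -0.49, adjusted p = 0.0457). Sppl2a encodes a protease that clears invariant chain fragments. The Cd83 and Ifi30 calls in cTECs were kept under every alternative. The HOIL effects differed for Ctsl (1.38), Ifi30 (1.32), Cd83 (2.44), Sppl2a (0.72) and Lamp2 (1.12). The Sppl2a call was lost under 17 of 20 alternatives and its difference between HOIL effects under 18 of 21. Ctsl lost its call under 8 of 20 in each cell type, and Ifi30 in mTEChi under 5. The list's medians were 0.43 in mTEChi and -0.15 in cTECs, the latter including Marchf1, which was below 1 CPM in both cTEC groups. Ctss, the cathepsin that trims the invariant chain in many antigen-presenting cells, had 489 ± 30.7 CPM in HOIL-deficient mTEChi and 376 ± 27.8 CPM in control mTEChi, and 7.69 ± 2.76 CPM in HOIL-deficient cTECs and 9.04 ± 1.16 CPM in control cTECs. Ctsl, which does so in cTECs, had 849.8 ± 264 and 542 ± 52.3 CPM in HOIL-deficient and control mTEChi, and 10605 ± 787 and 17563 ± 3036 CPM in HOIL-deficient and control cTECs. These proteases were thus split between the cell types in both genotypes, with Ctss higher in mTEChi (log2 5.37 in control mice, 5.97 in HOIL-deficient mice) and Ctsl lower (log2 -5.02 in control mice, -3.64 in HOIL-deficient mice). The whole list had 5 higher and 8 lower in control mTEChi against control cTECs, and 5 higher and 7 lower in HOIL-deficient mice.

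The last list held 8 other genes of the class II region, which lie near the members. None was called higher with HOIL deficiency in mTEChi and 3 were called lower: the immunoproteasome genes Psmb8 (log2 -0.94, adjusted p = 0.0136) and Psmb9 (log2 -0.78, adjusted p = 0.00226) and the bromodomain gene Brd2 (log2 -0.78, adjusted p = 0.0163). In cTECs 1 was lower, Brd2 (log2 -0.75, adjusted p = 0.0271), and none differed between the HOIL effects. The list's medians were -0.73 in mTEChi and -0.53 in cTECs. The cTEC median includes H2-Ea and Btnl2, which were below 1 CPM in both cTEC groups. Psmb8 lost its call without replicate 2 of HOIL-deficient or replicate 3 of control mTEChi, and Brd2 under 3 of 20 alternatives in mTEChi and 6 of 20 in cTECs. H2-Eb2, a beta chain gene next to H2-Eb1, had 215 ± 3.30 CPM in HOIL-deficient and 244 ± 14.7 CPM in control mTEChi, against 11.3 ± 2.50 and 12.3 ± 2.18 CPM in HOIL-deficient and control cTECs. It was higher in mTEChi in both genotypes (log2 4.25 in HOIL-deficient and 4.31 in control mice), and the HOIL effect on it was not called in mTEChi (log2 -0.18) or cTECs (log2 -0.12). In the cell type comparisons this list had 4 higher and 2 lower genes in each genotype. Psmb9 was lower in both, with Tap2 in control mice and Tap1 in HOIL-deficient mice. Tap2 lost its call under 7 of 21 alternatives and Tap1 under 10.

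**Figure D5:**
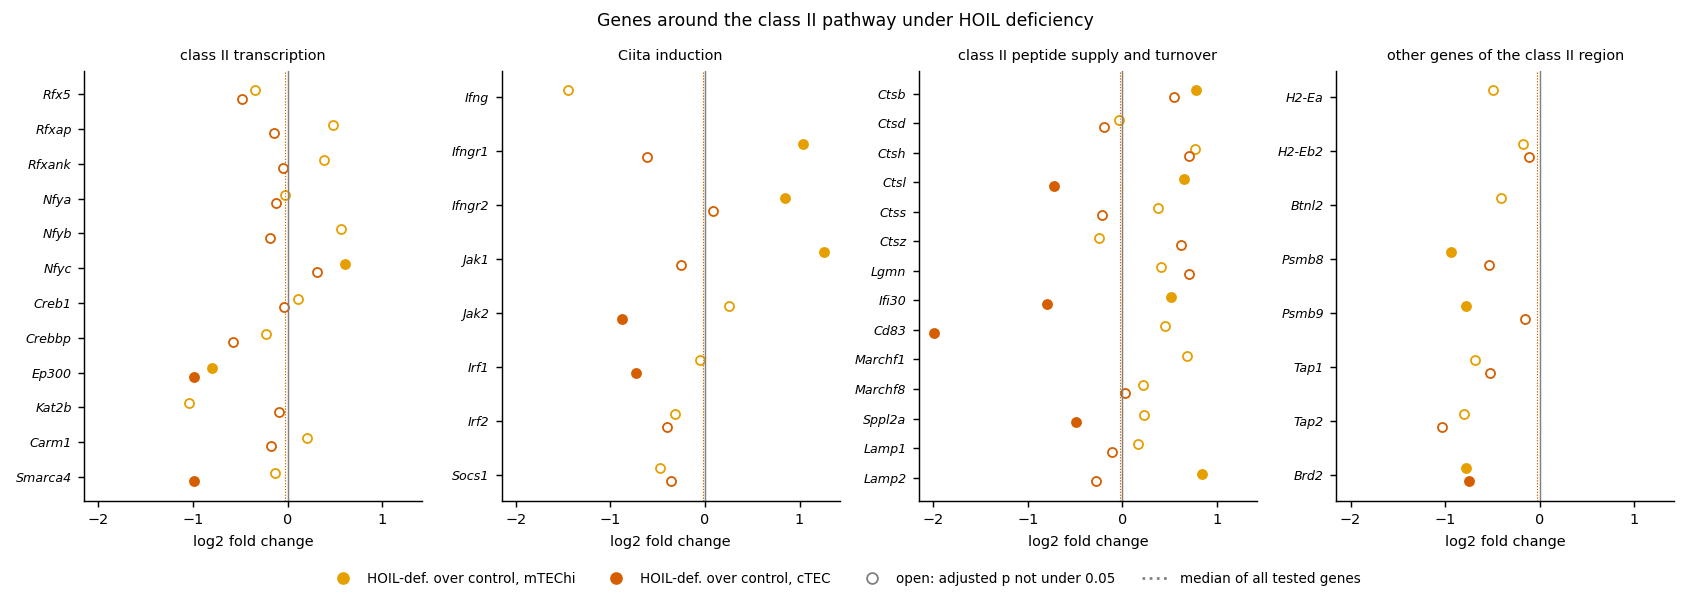
Log2 fold changes of HOIL-deficient over control libraries in mTEChi and in cTECs for the genes of the 4 lists, with filled points at an adjusted p under 0.05 and dotted lines at the median of all tested genes. The cTEC points of 4 genes below 1 CPM in both cTEC groups are left out. Jak1 is filled above 0 in mTEChi, and Irf1 below 0 in cTECs.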

How the data were processed

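The authors deposited raw counts per gene for each library with a gene length, for 27179 Entrez IDs. Per the submitters' processing notes, featureCounts and the mm10 build were used. Not given in the sources used here are the aligner, the annotation, the strandedness and the treatment of multi-mapping reads. Per the labels' protocols, cDNA was made with a SMART-Seq v4 kit, so reads have no molecular identifiers. A deposited table joining all libraries was not used. A RefSeq table of GRCm38.p6 gave symbols for 25275 IDs. IDs without a symbol (1904) took 4.53 to 6.10% of counts.

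Counts were analysed with edgeR 4.0.16 in R 4.3.3. filterByExpr on the 4 groups kept 19398 genes, TMM scaled the libraries, and 1 robust quasi-likelihood fit held all 12 with 1 coefficient per group. P values were adjusted by Benjamini-Hochberg over all tested genes and called under 0.05. SE is the absolute log2 fold change divided by the square root of F. CPM use TMM-scaled library sizes. Comparisons across genes within a library used the deposited length. DESeq2 1.42.0 and limma 3.58.1 (voom) were alternatives, as were other scaling factors, no filter, the compared groups alone, males alone, replicate blocks and leaving out each library. The procedure was tested on simulated data.

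The members, gene lists and tests were chosen with earlier results of these data known. All members are named in each comparison. Of each list, the genes called in the HOIL comparisons (up to 6 by p) and 8 genes set by name are given. In the cell type comparisons some called genes of the lists are counted and not named. A further gene of the rule is not reported here. BC051537 and Dexi were added after their overlap with members was seen. Whether replicates came from different mice is not in the labels. The p values therefore reflect only the spread among these libraries, which may be technical. The labels do not say what a replicate number stands for, so no block was used.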

Additional observations from a re-analysis of the deposited data

Results flagged for a closer look

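The effect of HOIL deficiency differed between the cell types for 2 of the 10 genes by the interaction test of edgeR, where 9.84% of all tested genes were called. For H2-DMb2 the mTEChi effect minus the cTEC effect was 0.92 on the log2 scale (SE 0.250, adjusted p = 0.0335), from 0.71 in mTEChi and -0.21 in cTECs. For Cd74 it was 0.87 (SE 0.220, adjusted p = 0.0243), from 0.46 in mTEChi and -0.42 in cTECs. Each HOIL-deficient mTEChi library was above each control mTEChi library for both genes. In cTECs the HOIL-deficient libraries were all below the controls for Cd74 and overlapped them for H2-DMb2. Over all tested genes, 44.8% did not overlap between genotypes in mTEChi and 28.0% in cTECs. Within a cell type, edgeR called Cd74 neither in mTEChi (adjusted p = 0.0516) nor in cTECs (0.0996). H2-DMb2 was called in mTEChi (0.0137) and not in cTECs (0.488). The H2-DMb2 call was lost under 11 of 21 alternatives and the Cd74 call under 7.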

How the results depend on the processing

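Of the 10 members, 9 were called in control mTEChi against control cTECs under every alternative, and 9 or 10 in the same comparison of HOIL-deficient mice. The HOIL comparisons were less stable. Members called in mTEChi, 2 by the analysis as reported, were 1 with RLE and 1 with upper-quartile factors and 0 to 3 when 1 library was left out (0 without replicate 1 of HOIL-deficient mTEChi). In cTECs, 2 became 1 with RLE factors, 1 with upper-quartile factors, 0 with only the compared groups, 0 in males and 0 to 3 without 1 library (0 without replicate 3 of HOIL-deficient cTECs). For the difference between the HOIL effects, 2 became 0 with RLE factors, 0 with upper-quartile factors, 0 in males and 0 to 3 without 1 library. The labels do not pair replicate numbers. Deviations of same-numbered libraries of 2 groups correlated at -0.16 to 0.098, so no such pair was above 0.1. Between HOIL-deficient cTECs and HOIL-deficient mTEChi every library correlated best with its own number (0.035 to 0.078, others at most 0.019), a hint from the data and not the design. Replicate 3 is the female library of both these groups, and the part of sex was not tested. With the replicate block over all groups the difference had 1 called member (Cd74, 0.88, adjusted p = 0.0460; H2-DMb2 0.93, adjusted p = 0.0557), and with the block within genotype Ciita was called (1.20, adjusted p = 0.0201) and Cd74 was not (adjusted p = 0.0567). The block left the counts of members called at 2 in mTEChi and 2 in cTECs. Over all genes, calls were 3858 in mTEChi (1944 without replicate 1 of control mTEChi), 2342 in cTECs (1340 without replicate 3 of control cTECs, 1395 with only the compared groups, 1540 in males) and 1908 for the difference (949 without replicate 3 of control mTEChi, 1030 in males). Some values near 0 changed sign. In cTECs H2-Aa was 0.0057 with upper-quartile factors, and H2-Eb1 was 0.039 with RLE factors, 0.056 with upper-quartile factors, 0.012 without the filter, 0.039 with DESeq2, 0.034 with only the compared groups and 0.0020 in males. In males H2-Eb1 was 0.024 in mTEChi and 0.022 for the difference. The difference for H2-DMa was -0.014 with RLE factors, -0.033 with upper-quartile factors and -0.014 with DESeq2, and that for H2-Ob 0.0062 with limma-voom. Leaving out 1 library gave -0.0069 to 0.33 for H2-Ab1, -0.12 to 0.044 for H2-Eb1 and -0.10 to 0.037 for H2-Oa in mTEChi, and -0.045 to 0.022 for H2-Eb1 and -0.0098 to 0.13 for H2-DMb1 in cTECs. It gave differences of -0.14 to 0.059 for H2-Eb1, -0.043 to 0.19 for H2-DMa and -0.34 to 0.22 for H2-Ob. Between control mTEChi and control cTECs the log2 ratio of H2-Ab1 to H2-Aa ranged from -0.21 to 0.066 and that of H2-DMb2 to H2-DMb1 from -0.12 to 0.11. The cause of these changes was not tested. Males alone and single libraries left out leave fewer samples.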

Other observations

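Across the 12 libraries the genes whose log2 CPM was most like that of Ciita were Mapkapk3, with a Pearson correlation of 0.96, and Fbxw11 (0.92), Tmem63b (0.91), Bricd5 (0.91) and Clip1 (0.91). These genes were picked as the highest of all tested genes, so lower values of the members follow from that choice. The members' correlations with Ciita ran from -0.05 for H2-DMa (rank 12240 of 19398 tested genes) to 0.53 for H2-DMb2 (rank 1282). After the group means had been taken off, the most alike genes were Zfp13, Uba7, Mbd3, Ehd1 and Grb7, each at 0.96. The members then lay between -0.17 for H2-Ob (rank 12394) and 0.78 for H2-DMb1 (rank 605). These are descriptions over 12 libraries in 4 groups that share depth, sort and group differences.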
